A study of Mus musculus with 6 samples.

Results

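The subject is a set of 33 genes of glycolysis and the pentose phosphate pathway in invariant natural killer T (iNKT) cells, T cells that recognise lipids presented by CD1d, from mouse liver, spleen and lymph node. The genes were taken by symbol from a list of pathway members, with earlier results of these data known, and all 33 were found among the 27998 genes listed in each library. The samples were 6 single-cell RNA libraries, 2 from each organ, from wild-type (WT) C57BL/6 mice aged 5 weeks, and no treatment is named for any group. CD8+ and B220+ cells had been depleted, and iNKT cells had been sorted as TCR-β+ and CD1d tetramer+. The number of mice behind a library is not stated, so p-values below measure the spread between libraries of an organ, pooled over the organs. Where a library was left out, its organ kept a single library, and the spread then came from the other organs.

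Glycolysis takes up glucose, splits it into triose phosphates and turns these into pyruvate, which is either reduced to lactate or carried into mitochondria and oxidised. The pentose phosphate pathway leaves glycolysis after the hexokinase step and makes NADPH and ribose phosphate. T cells that are activated or dividing are known for high use of aerobic glycolysis, in which most pyruvate leaves as lactate. Among iNKT cells, iNKT1 cells carry the IL-2 and IL-15 receptor subunit Il2rb, while iNKT17 cells carry the chemokine receptor Ccr6 and the IL-23 receptor Il23r.

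The libraries held 2638 to 2861 cells after filtering, with 4758138 to 10870838 unique molecular identifiers (UMIs, 1 per captured RNA molecule). Liver cells were deeper, with median UMI counts of 3592 and 2880 a cell against 1470 to 1730.5 in the other libraries, and levels are therefore given as CPM, UMIs per 1000000 UMIs of a library or cell set once ribosomal and haemoglobin genes were left out. A T cell marker list was read in every library at a summed 6730 to 7489 CPM, against 21.8 to 111 for a B cell list and 2.47 to 7.08 for a CD8 T cell list. A myeloid list summed to 129.7 CPM in lymph node replicate 2 and to at most 32.0 in the other libraries. The liver and spleen libraries held Xist RNA (5401 to 10404 UMIs) and no RNA of the Y-linked Ddx3y, whereas the lymph node libraries held 0 Xist UMIs and 676 and 746 Ddx3y UMIs. Lymph node and sex thus cannot be told apart in any comparison below that uses the lymph node. A list of 13 dissociation-linked stress genes summed to 8696 and 9482 CPM in lymph node, 2296 and 1958 in spleen and 1432 and 1588 in liver. Libraries shared 6 to 20 cell barcodes a pair.

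RefSeq sequence upstream of the start site (GRCm38.p6) is given for 3 members on which the results turn, namely Hk2, whose level was high in lymph node, and Gapdh and Tpi1, whose levels were high in liver. Each run is the 250 bases before the RefSeq start, 5′ to 3′ on the minus strand of chromosome 6, and capitals mark ACGTG, the core shared by hypoxia response elements and Myc boxes, and GGGCGG, the core of the GC box, each on either strand. The windows lie at chr6:82774455-82774704 for Hk2, chr6:125165774-125166023 for Gapdh and chr6:124814159-124814408 for Tpi1.
Hk2: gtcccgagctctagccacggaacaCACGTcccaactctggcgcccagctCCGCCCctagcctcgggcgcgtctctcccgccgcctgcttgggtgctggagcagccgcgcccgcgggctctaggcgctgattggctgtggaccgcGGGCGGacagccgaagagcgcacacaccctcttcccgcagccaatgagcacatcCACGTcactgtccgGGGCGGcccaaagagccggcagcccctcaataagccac
Gapdh: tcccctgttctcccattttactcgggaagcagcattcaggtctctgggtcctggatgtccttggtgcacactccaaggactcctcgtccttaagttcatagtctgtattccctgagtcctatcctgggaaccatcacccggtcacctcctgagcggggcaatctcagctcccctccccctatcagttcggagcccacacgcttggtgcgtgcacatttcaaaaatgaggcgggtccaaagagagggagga
Tpi1: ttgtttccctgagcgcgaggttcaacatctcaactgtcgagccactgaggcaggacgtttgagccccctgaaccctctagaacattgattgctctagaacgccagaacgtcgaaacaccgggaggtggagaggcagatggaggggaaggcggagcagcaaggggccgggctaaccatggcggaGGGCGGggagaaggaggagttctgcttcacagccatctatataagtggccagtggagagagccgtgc
Hk2 held 2 matches to ACGTG and 3 to GGGCGG, Tpi1 held 1 match to GGGCGG, and Gapdh held neither run of letters in this window. The Tpi1 window runs 138 bases into the first exon of a longer transcript in GENCODE, of which 114 are coding, and its GGGCGG match lies in that coding stretch, while the Gapdh window lies in an intron of a longer transcript. A match of one motif may share a base with a match of the other. ACGTG was found in 15 of the 46 windows of members (32.6%) against 16.6% of all 32851 windows of this length, or by gene in 12 of the 32 members that have a window against 18.5% of all 27025 genes. GGGCGG was found in 29 of the 46 windows of members (63.0%) against 32.7% of all windows, or by gene in 25 of 32 members against 35.4% of all genes. These are matches of letters only. The windows of all genes take in many genes that were not tested in these cells, whereas every member was tested. The shares are thus not set against expressed genes alone. Tpi1 and Gapdh lie 347 kb apart, and 6 members lie on chromosome 6.

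The level of 17 of 33 members differed between at least 1 pair of organs when all cells of a library were summed (edgeR quasi-likelihood test, adjusted p under 0.05 over 10174 genes). Of all genes tested, 48.4% differed between at least 1 pair of organs, so the members' share was close to that of all genes. Against spleen, liver was higher for 8 members and lower for 4, where 12.7% of all genes tested were called higher and 13.0% lower. Against lymph node, liver was higher for 10 members and lower for 5, where 18.0% of all genes were called higher and 19.6% lower. Spleen was higher than lymph node for 2 members and lower for 1, where 7.98% and 10.3% of all genes were called. The median log2 fold change of the members was 0.01 for liver against spleen, 0.16 for liver against lymph node and 0.08 for spleen against lymph node, beside 0.02, 0.01 and 0.00 over all genes tested. The members thus differed in both directions. In both liver comparisons the genes of lower glycolysis that were called were higher in liver (4 and 3 of 8), and the genes of pyruvate entry that were called were lower there (3 of 6 in each).

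**Figure D1:**
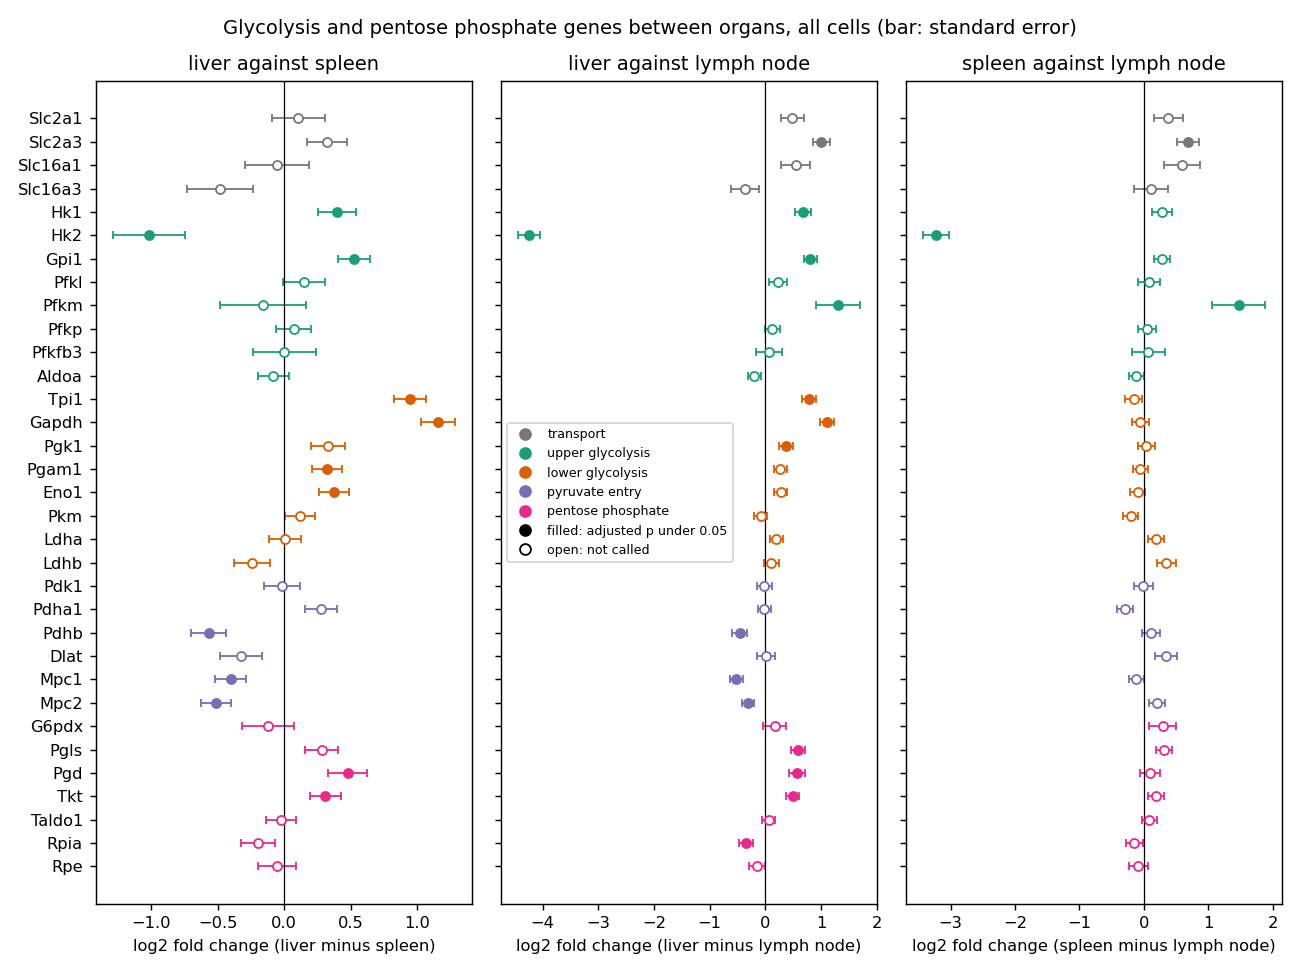
Log2 fold change (x axis) of each of the 33 members (y axis, coloured by role) between organs, all cells, with standard error; filled points passed an adjusted p of 0.05. Hk2 stands far to the left in both lymph node panels, and Tpi1 and Gapdh stand to the right in both liver panels.

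Among glucose transporters, Slc2a3 (GLUT3, chromosome 6, 122727809 to 122801640, GRCm38) fell in a clear order of organs. It read 49.1 and 46.8 CPM in the liver libraries, 37.2 and 35.6 in those of spleen, and 21.4 and 24.6 in those of lymph node. The groups did not overlap, with liver highest and lymph node lowest. Liver was above lymph node by a log2 fold change of 1.01 ± 0.16 (SE, edgeR adjusted p = 5.72e-06, n = 2 against 2) and spleen was above lymph node by 0.68 ± 0.17 (edgeR adjusted p = 0.00402), while liver and spleen differed by 0.32, which was not called. The spleen call was lost without lymph node replicate 1 (0.59, edgeR adjusted p = 0.0706). The other transporters, Slc2a1 (GLUT1) and the lactate transporters Slc16a1 and Slc16a3, were read at 7.57 to 22.2 CPM in single libraries and were called in no organ comparison.

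Hexokinases phosphorylate glucose once it is inside the cell, and Hk2 showed the largest fold of all 33 members between lymph node and either other organ. Hk2 (chromosome 6, 82725025 to 82774454, minus strand) is the inducible isozyme and was read at 3.96 and 4.78 CPM in the liver libraries, 7.81 and 8.96 in those of spleen, and 82.5 and 77.2 in those of lymph node. Both lymph node libraries thus lay far above all others, on 305 and 279 UMIs against 28 to 32 in each of the other libraries. The log2 fold change was -4.25 ± 0.20 for liver against lymph node (edgeR adjusted p = 4.37e-18) and -3.23 ± 0.20 for spleen against lymph node (edgeR adjusted p = 1.05e-14), and both calls held without any 1 library. Liver was also below spleen by a log2 fold change of -1.02 ± 0.27 (edgeR adjusted p = 0.00624), a call that was lost without liver replicate 1 (-0.85, edgeR adjusted p = 0.082) and without spleen replicate 2 (-0.90, edgeR adjusted p = 0.0722), with sums thinned to 1 total (-0.70, edgeR adjusted p = 0.0906) and with cells thinned to 1000 UMIs (-0.91, edgeR adjusted p = 0.203). Liver was the organ with the deepest cells.

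Hk1, the constitutive isozyme, went the other way. It read 70.8 and 65.3 CPM in the liver libraries, 55.2 and 42.8 in those of spleen, and 38.4 and 43.4 in those of lymph node, so that liver stood above the others while spleen and lymph node overlapped. Liver exceeded lymph node by 0.68 ± 0.14 on the log2 scale (edgeR adjusted p = 0.000337). The call of liver over spleen (0.40 ± 0.14, edgeR adjusted p = 0.0373) was lost without liver replicate 1 (0.37, edgeR adjusted p = 0.15), liver replicate 2 (0.44, edgeR adjusted p = 0.0569) or spleen replicate 2 (0.25, edgeR adjusted p = 0.364), and under DESeq2 (0.39, DESeq2 adjusted p = 0.196). As a share of the UMIs of both hexokinases, Hk1 made up 93.9% ± 1.08 of them in liver, 85.2% ± 3.47 in spleen but 33.9% ± 3.00 in lymph node (SD, n = 2 each). The isozymes of lactate dehydrogenase showed no such shift, with Ldha at 92.8% ± 0.10, 91.6% ± 0.25 and 92.4% ± 0.87 of the UMIs of Ldha and Ldhb. Capture of the 3′ end can differ between genes, so such shares serve to compare organs, not isozymes. The stress gene list was also highest in lymph node, and its part in the Hk2 result was not tested.

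The next steps of upper glycolysis followed in part. Gpi1, which converts glucose phosphate to fructose phosphate, was read at 421 and 353 CPM in the liver libraries, 278 and 232 in those of spleen, and 223 and 202 in those of lymph node. Liver lay above both other organs, by 0.81 ± 0.12 over lymph node (edgeR adjusted p = 1.65e-06) and by 0.53 ± 0.12 over spleen (edgeR adjusted p = 0.0013), the latter lost without spleen replicate 2 (0.42, edgeR adjusted p = 0.0563). Pfkm, the muscle-type phosphofructokinase subunit, was scarce at 7.08 and 7.09 CPM in the liver libraries, 10.2 and 4.76 in those of spleen, and 2.70 and 2.77 in those of lymph node, with 10 UMIs in each lymph node library. Its calls over lymph node (1.31 ± 0.39 for liver, edgeR adjusted p = 0.00833, and 1.47 ± 0.41 for spleen, edgeR adjusted p = 0.0104) were lost without lymph node replicate 1 (1.30 and 1.46, edgeR adjusted p = 0.0599 and 0.0715) or replicate 2 (1.32 and 1.47, edgeR adjusted p = 0.0651 and 0.0822), and the spleen call without spleen replicate 1 (0.84, edgeR adjusted p = 0.319). Both were also lost under DESeq2 (DESeq2 adjusted p = 0.105 and 0.119) and with cells thinned (1.15 and 1.17, edgeR adjusted p = 0.0812 and 0.128). Pfkl, Pfkp, Pfkfb3, which makes an activator of phosphofructokinase, and the aldolase Aldoa were not called in any organ comparison. Aldoa, among the 3 members with most UMIs, read 711 and 765 in the liver libraries, 786 and 697 in those of spleen, and 846 and 786 in those of lymph node, and these ranges overlapped between neighbours.

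**Figure D2:**
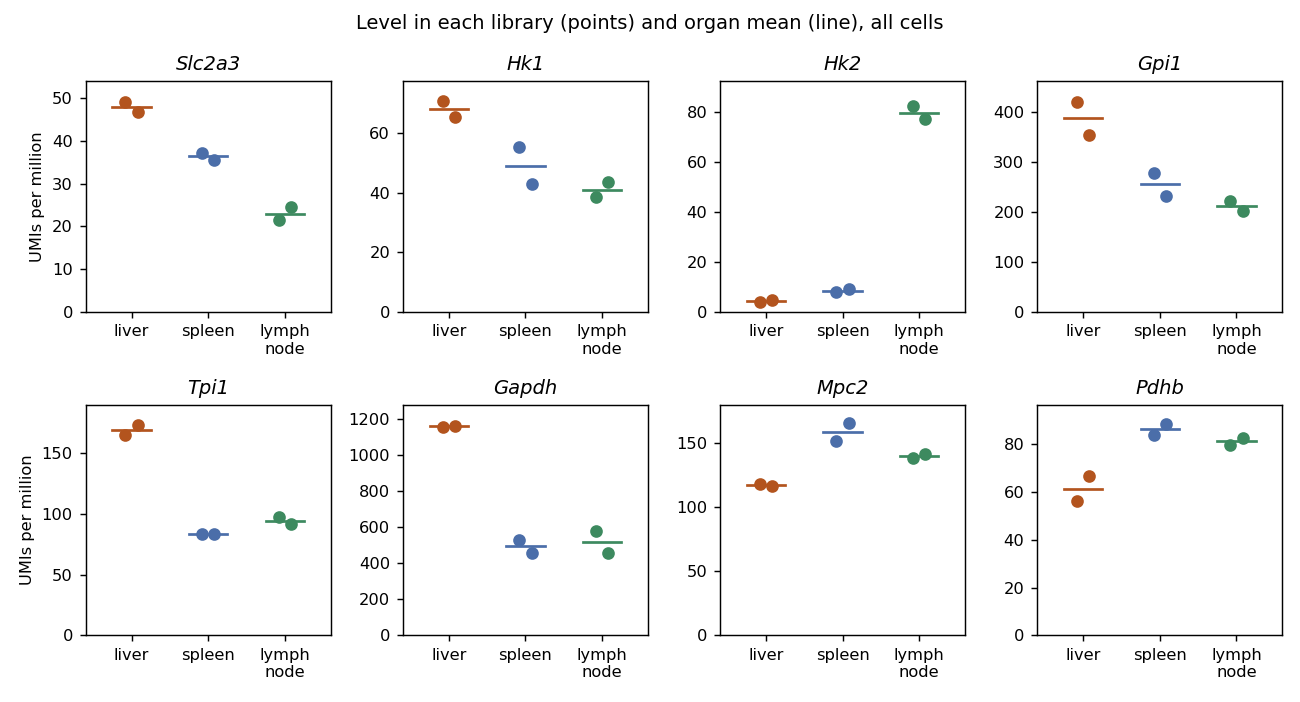
CPM (y axis, from 0) of 8 members in each library (points) of liver, spleen and lymph node (x axis), with the mean of 2 libraries as a line. Hk2 reaches 82.5 in lymph node and stays at or below 8.96 elsewhere, while Gapdh reads 1157 and 1160 in liver and at most 579 elsewhere.

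In lower glycolysis, Tpi1 and Gapdh, which act one after the other on triose phosphates, were 1.72 to 2.23 times as high in liver as in the other organs. Gapdh (chromosome 6, 125161715 to 125166467) read 1157 and 1160 CPM in the liver libraries, 531 and 455 in those of spleen, and 579 and 459 in those of lymph node. Spleen and lymph node overlapped, and both lay below liver by log2 fold changes of 1.16 ± 0.13 (liver minus spleen, edgeR adjusted p = 3.43e-08) and 1.10 ± 0.13 (liver minus lymph node, edgeR adjusted p = 1.30e-08). Tpi1 (chromosome 6, 124810586 to 124814296) read 165 and 173 in the liver libraries, 83.3 and 82.9 in those of spleen, and 97.1 and 91.5 in those of lymph node. Liver exceeded spleen by 0.95 ± 0.12 (edgeR adjusted p = 5.54e-07) and lymph node by 0.78 ± 0.12 (edgeR adjusted p = 2.39e-06), and all 4 calls of Tpi1 and Gapdh held without any 1 library and under each of 9 processing alternatives. With every cell thinned to 1000 UMIs, a Gapdh UMI was found in 48.0% and 48.6% of liver cells, against 28.6% and 24.1% of spleen and 28.9% and 25.7% of lymph node cells. A list of 11 hepatocyte genes summed to 31.6 and 29.7 CPM in the liver libraries, with 4 genes at 0 in each library, against 12.0 to 97.1 elsewhere, where lymph node replicate 2 was highest. A list of 5 erythroid genes summed to 556 and 866 in liver and to at most 0.28 elsewhere, and its part in the liver results was not tested.

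The later steps differed less. Pgam1 (0.32 ± 0.12, edgeR adjusted p = 0.0382) and Eno1 (0.38 ± 0.11, edgeR adjusted p = 0.0148), which carry phosphoglycerate towards phosphoenolpyruvate, were called higher in liver than in spleen. Pgk1, an X-linked kinase that makes ATP, was called higher in liver than in lymph node (0.37 ± 0.13, edgeR adjusted p = 0.0246). Each of these calls was lost without at least 1 library. Pgam1 was lost without either liver or either spleen library or lymph node replicate 1 (0.29 to 0.36, edgeR adjusted p up to 0.207). Eno1 was lost without liver replicate 2 or either spleen library (0.33 to 0.41, edgeR adjusted p up to 0.142), and Pgk1 was lost without liver replicate 1 (0.23, edgeR adjusted p = 0.256) or lymph node replicate 2 (0.26, edgeR adjusted p = 0.271). The calls of Pgam1 and Pgk1 were also lost under DESeq2 (DESeq2 adjusted p = 0.127 and 0.134) and with cells thinned (edgeR adjusted p = 0.0793 and 0.0805), and that of Pgam1 with sums thinned (edgeR adjusted p = 0.0901). Pkm, Ldha and Ldhb, which make pyruvate and exchange it with lactate, were not called. Ldha read 783 and 907 in the liver libraries, 809 and 790 in those of spleen, and 729 and 694 in those of lymph node, with liver and spleen overlapping. Reads of Aldoa, Gapdh, Pgk1 and Pgam1 (2 named pseudogene copies each) and Ldha (1 copy) may have been split with those copies, so their levels are uncertain to that degree.

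Genes of pyruvate entry into mitochondria stood on the opposite side. The carrier subunits Mpc1 and Mpc2 and the pyruvate dehydrogenase subunit Pdhb were called lower in liver than in both other organs, and none of the 6 genes of this role was called higher. Against spleen the log2 fold changes were -0.40 ± 0.12 for Mpc1 (edgeR adjusted p = 0.0107), -0.51 ± 0.12 for Mpc2 (edgeR adjusted p = 0.00133) and -0.57 ± 0.13 for Pdhb (edgeR adjusted p = 0.00186). Mpc2 read 118 and 116 CPM in the liver libraries, 152 and 165 in those of spleen, and 138 and 142 in those of lymph node, and the organs did not overlap. The Mpc2 call against spleen held without any 1 library, whereas that of Pdhb was lost without liver replicate 1 (-0.41, edgeR adjusted p = 0.0649) and that of Mpc1 without liver replicate 1 (-0.31, edgeR adjusted p = 0.132) or spleen replicate 2 (-0.33, edgeR adjusted p = 0.136). Against lymph node the values were -0.52 ± 0.12 for Mpc1, -0.31 ± 0.12 for Mpc2 and -0.46 ± 0.13 for Pdhb (edgeR adjusted p = 0.000545, 0.0334 and 0.00653). Here the call of Mpc1 held without any 1 library. That of Mpc2 was lost without any 1 of the liver or lymph node libraries (-0.30 to -0.32, edgeR adjusted p up to 0.153), and that of Pdhb without liver replicate 1 (-0.31, edgeR adjusted p = 0.126) or lymph node replicate 2 (-0.43, edgeR adjusted p = 0.0675). The calls of Mpc2 and Pdhb against lymph node were also lost under DESeq2 (DESeq2 adjusted p = 0.119 and 0.058) and with cells thinned (edgeR adjusted p = 0.172 and 0.055). That of Mpc2 was also lost without the filter on low counts (edgeR adjusted p = 0.0875) or without cycling cells (edgeR adjusted p = 0.0538). Pdk1, the kinase that inhibits pyruvate dehydrogenase, Pdha1 and Dlat were not called.

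In the pentose phosphate pathway, liver was higher than lymph node for Pgls, Pgd and Tkt and lower for Rpia. Pgls, the lactonase, read 271 and 250 CPM in the liver libraries, 208 and 199 in those of spleen, and 189 and 143 in those of lymph node. Its log2 fold change for liver against lymph node was 0.59 ± 0.12 (edgeR adjusted p = 0.000247), while its annotated span overlaps Fam129c on the same strand. Pgd, the second dehydrogenase, differed by 0.57 ± 0.15 from lymph node (edgeR adjusted p = 0.0024) and by 0.48 ± 0.15 from spleen (edgeR adjusted p = 0.015). The transketolase Tkt differed by 0.50 ± 0.12 (edgeR adjusted p = 0.00102) and 0.31 ± 0.12 (edgeR adjusted p = 0.047), and the isomerase Rpia differed from lymph node by -0.34 ± 0.13 (edgeR adjusted p = 0.0308). The calls of Pgls and Tkt against lymph node held without any 1 library. That of Pgd was lost without lymph node replicate 2 (0.46, edgeR adjusted p = 0.0764) and that of Rpia without any 1 of the liver or lymph node libraries (-0.29 to -0.40, edgeR adjusted p up to 0.187). Against spleen the call of Pgd was lost without liver replicate 1 (0.47, edgeR adjusted p = 0.0661) or spleen replicate 2 (0.41, edgeR adjusted p = 0.136), and that of Tkt held only without spleen replicate 1 (0.21 to 0.37 where it was lost, edgeR adjusted p up to 0.376). Under DESeq2 the calls of Pgd and Tkt against spleen and of Rpia against lymph node were lost (DESeq2 adjusted p = 0.121, 0.139 and 0.155). With cells thinned, those of Pgd and Tkt against spleen were lost (edgeR adjusted p = 0.076 and 0.114), and that of Tkt also with sums thinned (edgeR adjusted p = 0.103) or RLE normalization (edgeR adjusted p = 0.0569). That of Rpia was also lost without the filter on low counts (edgeR adjusted p = 0.0754). G6pdx, the X-linked enzyme that opens the pathway, read 16.8 to 20.99 in single libraries and was not called, nor were Taldo1 and Rpe.

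Summed over all 33 members, the level was 66.1 and 67.6 UMIs per 10000 in the liver libraries, 56.0 and 51.4 in those of spleen, and 55.9 and 53.4 in those of lymph node. Liver thus stood above both other organs, which overlapped. Most of this lay in lower glycolysis, which summed to 37.3 ± 1.21 in liver against 26.4 ± 1.33 in spleen and 27.1 ± 1.09 for lymph node (SD, n = 2 each). Gapdh alone took up much of it, since without Gapdh the members summed to 55.3 ± 1.04, 48.8 ± 2.70 and 49.5 ± 0.93. Pyruvate entry summed to 5.38 ± 0.0017 in liver against 6.16 ± 0.11 and 6.27 ± 0.18, and the pentose phosphate genes to 9.60 ± 0.06 against 8.33 ± 0.65 and 7.76 ± 0.32. After each cell was thinned to 1000 UMIs, a cell held a median of 3 to 4 member UMIs in every library, and 1.51% to 3.26% of cells held none.

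**Figure D3:**
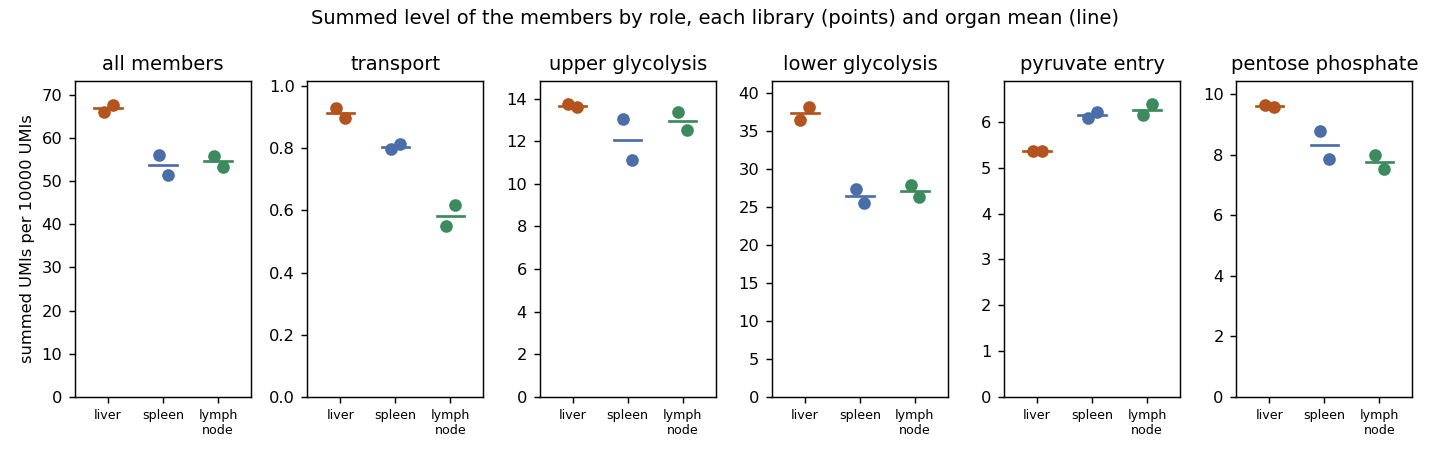
Summed UMIs of the members per 10000 UMIs (y axis, from 0, own scale in each panel) by role, in each library (points) of each organ (x axis), with organ means as lines. Liver is highest for all members (66.1 and 67.6) and lowest for pyruvate entry (5.37 and 5.38).

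The organs also differ in their mix of iNKT cells, and a sum over all cells does not separate a different mix from a different level per cell. Cells with an Il2rb UMI made up 79.5% and 74.6% of liver cells, 31.3% and 23.4% of spleen cells and 11.8% and 11.4% of lymph node cells, and deeper cells are more easily counted among them. The members were therefore also compared within Il2rb cells, where 32 of 33 passed the filter on low counts. These cells differed between organs as well. In them a list of iNKT1-linked genes, with Il2rb left out of the sum, reached 3700 and 4214 CPM in lymph node and 9254 to 10582 in the other organs. A list of iNKT17-linked genes, with Ccr6 and Il23r left out, reached 606 and 586 in lymph node and 57.9 to 301 elsewhere. Liver was called higher than spleen for 4 members and lower for 0, where 7.83% and 7.86% of the 8184 genes tested were called. Liver was higher than lymph node for 5 and lower for 1, where 7.84% and 10.2% were called, and spleen was higher for 0 and lower for 2, where 1.59% and 3.36% were called. By DESeq2 the numbers of members called were 4, 4 and 1 for these comparisons.

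Gapdh, Tpi1, Gpi1 and Hk2 were again among the members called in Il2rb cells. Gapdh read 1178 and 1204 CPM in the liver libraries, 543 and 498 in those of spleen, and 756 and 651 in those of lymph node, so that liver was highest, spleen lowest and no organ overlapped another. Liver exceeded spleen by 1.14 ± 0.13 (edgeR adjusted p = 2.62e-07) and lymph node by 0.69 ± 0.13 (edgeR adjusted p = 0.000233). Spleen lay below lymph node by -0.45 ± 0.13 (edgeR adjusted p = 0.049), a call lost without any 1 of the spleen or lymph node libraries (-0.30 to -0.55, edgeR adjusted p = 0.0744 to 0.499) and in 9 of 12 processing alternatives, DESeq2 and both kinds of thinning among them (adjusted p up to 0.41). Tpi1 exceeded spleen by 0.93 ± 0.16 (edgeR adjusted p = 0.000125) with 165 and 182 against 90.2 and 84.7, and its 106 and 145 in lymph node were below liver but not called. Gpi1 was higher in liver than in lymph node by 0.94 ± 0.15 (edgeR adjusted p = 2.89e-05).

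Hk2 in Il2rb cells read 4.23 and 4.79 in the liver libraries, 4.75 and 5.57 in those of spleen, and 46.5 and 38.9 in those of lymph node. The log2 fold changes were -3.30 ± 0.37 for liver against lymph node (edgeR adjusted p = 8.78e-08) and -3.07 ± 0.46 for spleen against lymph node (edgeR adjusted p = 2.84e-05), on 22 and 18 lymph node UMIs. Both calls held without any 1 library. Liver and spleen differed by -0.23 ± 0.51, which was not called. Of the remaining calls, Slc2a3 (1.17 ± 0.33) and Hk1 (0.83 ± 0.26) over lymph node were lost without lymph node replicate 1 (0.62 and 0.57, edgeR adjusted p = 0.345 and 0.3). Pgls (0.77 ± 0.16) was lost without lymph node replicate 2 (0.59, edgeR adjusted p = 0.0647). Gpi1 over spleen (0.54 ± 0.13) was lost without liver replicate 1 (0.43, edgeR adjusted p = 0.0584) or spleen replicate 2 (0.46, edgeR adjusted p = 0.108). Eno1 over spleen (0.42 ± 0.13) was lost without liver replicate 2 (0.36, edgeR adjusted p = 0.0691), spleen replicate 1 (0.45, edgeR adjusted p = 0.101) or spleen replicate 2 (0.40, edgeR adjusted p = 0.177). In the Il2rb cells of lymph node the stress gene list (8112 and 8646 CPM against at most 2326 in the other organs) and the iNKT17-linked list (606 and 586 against at most 301) were both highest, and their part in the Hk2 result was not tested. The calls of Slc2a3 and Hk1 were also lost under DESeq2 (DESeq2 adjusted p = 0.122 and 0.179), and with sums thinned (edgeR adjusted p = 0.093 and 0.097). They were lost again with 2 UMIs asked for (0.31 and 0.57, edgeR adjusted p = 0.856 and 0.64) and with sets called after thinning (edgeR adjusted p = 0.183 and 0.277). The call of Hk1 was lost with cells thinned (1.00, edgeR adjusted p = 0.0677) and that of Eno1 with 2 UMIs asked for (0.39, edgeR adjusted p = 0.159).

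Cells with a Ccr6 or Il23r UMI numbered 370 and 455 in lymph node, 24 and 11 in spleen and 12 and 12 in liver, of which 7 and 6 liver cells also held Il2rb. Only 10 of 33 members passed the filter in their sums. Liver was called higher than spleen for 1 of these and higher than lymph node for 3, where 3.61% and 18.5% of the 1109 genes tested were called in either direction. For spleen against lymph node 0 were called, where 2.98% of all genes were, and of the 10 members 0 had an unadjusted p under 0.05 and 0 were called by DESeq2. Gapdh read 1535 and 1282 CPM in the liver libraries, 350 and 352 in those of spleen, and 512 and 431 in those of lymph node, on 87 and 47, 16 and 6, and 305 and 280 UMIs. Liver again stood above the other organs, by 2.08 ± 0.32 over spleen (edgeR adjusted p = 1.08e-06) and 1.57 ± 0.19 over lymph node (edgeR adjusted p = 1.36e-10). The first call was lost without spleen replicate 1 (2.10, edgeR adjusted p = 0.0543), and both were lost once cells that also held Il2rb were left out (1.51 and 0.93, edgeR adjusted p = 0.224 and 0.119). Gpi1 (0.96 ± 0.30) and Ldha (0.79 ± 0.19) were called higher in liver than in lymph node. Gpi1 turned to -0.049 without liver replicate 1 (edgeR adjusted p = 0.98) and was not called without lymph node replicate 1 (0.80, edgeR adjusted p = 0.122). Ldha was lost without liver replicate 1 (0.74, edgeR adjusted p = 0.0931) or either lymph node library (0.80 and 0.78, edgeR adjusted p = 0.0637 and 0.0965), without the filter on low counts (0.62, edgeR adjusted p = 0.132) and without cycling cells (0.64, edgeR adjusted p = 0.0503). A list of cycling genes summed to 5522 and 7747 CPM in the Ccr6 or Il23r cells of liver and to 1884 and 1793 in those of lymph node. The Gpi1 call was also lost under DESeq2 (0.88, DESeq2 adjusted p = 0.739), without the filter on low counts (0.79, edgeR adjusted p = 0.262) and without cells that also held Il2rb (0.99, edgeR adjusted p = 0.182).

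Both kinds of cell were also compared inside each library, where they shared sex and handling. Lymph node held the most Ccr6 or Il23r cells and the fewest Il2rb cells, with 343 and 424 cells that held Ccr6 or Il23r alone and 284 and 293 that held Il2rb alone. Ccr6 or Il23r cells were called higher for 2 of 29 members tested and lower for 1, where 3.14% and 3.70% of the 7291 genes tested were called. The stress gene list summed to 8523 and 8950 CPM in all Ccr6 or Il23r cells of lymph node, beside 8112 and 8646 in Il2rb cells. Hk2 read 155 and 158 CPM in Ccr6 or Il23r cells against 43.0 and 36.4 in Il2rb cells, so that both libraries showed a gap in the same direction. The log2 fold change was 1.92 ± 0.28 (edgeR adjusted p = 6.18e-10), and the call held without any 1 library. Most Hk2 UMIs of lymph node nevertheless lay in cells with neither mark, at 199 of 305 and 166 of 279. Such cells held 16 and 27 Hk2 UMIs in spleen and 3 and 6 in liver. Their totals were 2683648 and 2553674 UMIs in lymph node, 2532541 and 2660450 in spleen, and 1134226 and 1247791 in liver. Gapdh went the other way, at 500 and 433 against 772 and 682 (-0.70 ± 0.17, edgeR adjusted p = 0.00105). The list of cycling genes was also lower, at 1884 and 1793 CPM in all Ccr6 or Il23r cells against 3614 and 4357 in all Il2rb cells. The Gapdh call held without cells counted as cycling, and the part of cycling in it was not tested. The pyruvate carrier subunit Mpc1 was higher, at 244 and 273 against 146 and 175 (0.64 ± 0.19, edgeR adjusted p = 0.0178). Without lymph node replicate 1 or 2, neither the Gapdh call (-0.68 and -0.67, edgeR adjusted p = 1.0 in both) nor the Mpc1 call (0.62 and 0.70, edgeR adjusted p = 1.0 in both) remained. Both were also lost under DESeq2 (DESeq2 adjusted p = 0.684 and 0.434) and with cells thinned (-0.53 and 0.49, edgeR adjusted p = 0.0612 and 0.451), and that of Gapdh with sums thinned (-0.36, edgeR adjusted p = 0.884).

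In liver and spleen the same contrast rested on 5 and 6 and on 24 and 10 Ccr6 or Il23r cells. In liver 0 of 29 members were called, where 1.77% of all genes were, with 2 members at an unadjusted p under 0.05 and 0 called by DESeq2. In spleen 1 member was called, where 1.08% of all genes were. That member was Hk2, with 8 UMIs in the Ccr6 or Il23r cells of spleen replicate 1 and 0 in those of replicate 2, and the call was lost without spleen replicate 1 (-6.02, edgeR adjusted p = 0.855), lymph node replicate 1 (4.15, edgeR adjusted p = 0.0554) or lymph node replicate 2 (4.19, edgeR adjusted p = 0.0517), and with cells thinned (4.64, edgeR adjusted p = 0.067). The contrast differed between organs for 0 members in all 3 pairs (1, 2 and 2 members at an unadjusted p under 0.05 in the order liver with spleen, liver with lymph node, spleen with lymph node, and 0 by DESeq2), where 0.0411%, 0.288% and 0.0137% of all genes were called in that order.

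Hk2 was also counted by cells. After each cell was thinned to 1000 UMIs, which left out 0 and 9 cells of lower depth from the liver libraries, 144 and 169 from those of spleen and 265 and 488 from those of lymph node, 5.69% and 5.55% of lymph node cells held an Hk2 UMI (exact 95% intervals 4.79 to 6.70 and 4.66 to 6.55). The shares were 0.309% and 0.483% in spleen and 0.214% and 0.175% in liver, and their intervals did not reach those of lymph node. Without thinning, the shares were 8.68% and 7.94%, 0.953% and 1.09%, and 0.821% and 0.874%. In lymph node, 10.9% and 11.2% of Ccr6 or Il23r cells and 2.86% and 2.61% of Il2rb cells held an Hk2 UMI after thinning, at unthinned median depths of 2011 and 1767 against 1676 and 1394 UMIs. No sorted cell type that should lack Hk2 was at hand, and the Il2rb cells of liver (0.135% and 0.141%) and spleen (0.122% and 0.334%) are given in its place. Intervals cover counting error only. In liver 0 of 12 Ccr6 or Il23r cells held a UMI in each library, with an exact upper limit of 26.5%. In spleen, 4 of 24 such cells of replicate 1 held one (16.7%, exact interval 4.74 to 37.4), a share above those of lymph node, and 0 of 11 of replicate 2 did. Hk2 did not pass the filter on low counts in the sums of Ccr6 or Il23r cells. Without that filter, spleen and lymph node differed by -0.60 ± 0.53 on the log2 scale, which was not called (edgeR adjusted p = 0.924), and liver, at 0 UMIs in both libraries, was called lower than lymph node (edgeR adjusted p = 5.67e-05) but not than spleen (edgeR adjusted p = 0.152). Of the 12 Ccr6 or Il23r cells in each liver library, 7 and 6 also held Il2rb, and the part of this overlap in the Hk2 result was not tested. Whether the organ difference of Hk2 depends on the cell set was tested only by the contrast of both sets between organs, given above.

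**Figure D4:**
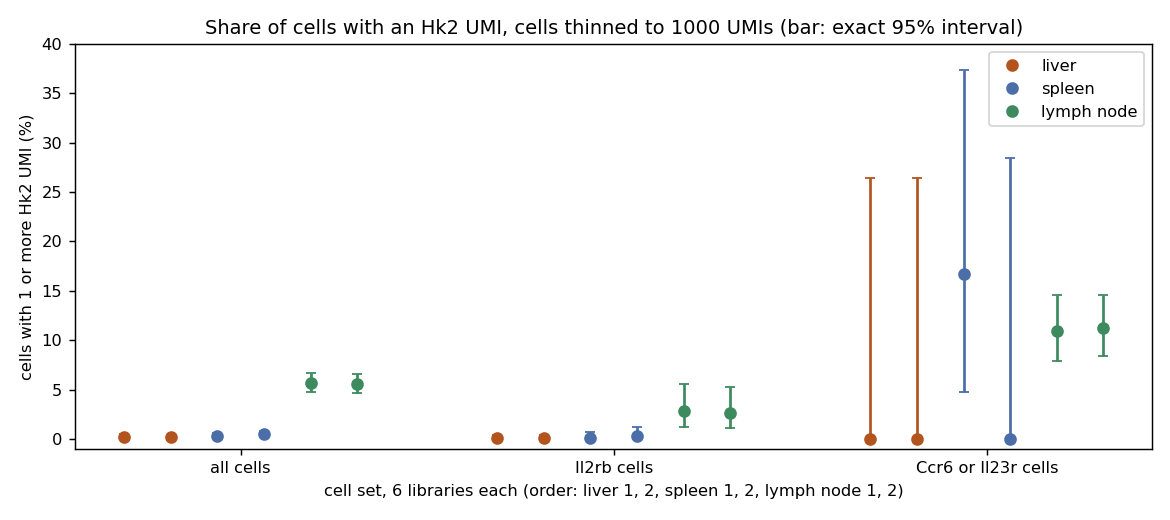
Percent of cells with at least 1 Hk2 UMI (y axis) in each library, by cell set (x axis), after thinning to 1000 UMIs a cell, with exact 95% intervals. The shares in lymph node lie above those of liver and spleen among all cells and Il2rb cells, but the Il2rb intervals of replicate 2 of spleen (up to 1.20%) and of lymph node (from 1.06%) overlap, as do the Ccr6 or Il23r intervals of liver and spleen with those of lymph node.

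Dividing cells were compared with the other cells of their own library, a comparison added after the data had been seen. Cells with at least 2 UMIs of 10 cell cycle genes made up 7.03% and 7.34% of liver, 2.86% and 4.14% of spleen, and 2.81% and 2.81% of lymph node cells, and they were deeper (median UMI counts of 4123.5 to 5592 against 1456.5 to 3537.5). Cycling cells were called higher for 9 members and lower for 4 of 33, where 16.3% and 15.9% of the 9878 genes tested were called. Of 8 genes of lower glycolysis, 6 were higher and 1, Ldhb, was lower. Gapdh rose by 1.06 ± 0.07, Tpi1 by 1.02 ± 0.09, Pgk1 by 0.98 ± 0.10, Pgam1 by 0.74 ± 0.09, Ldha by 0.62 ± 0.06 and Pkm by 0.57 ± 0.07 on the log2 scale (edgeR adjusted p of 1.65e-10 or less in each). Ldhb fell by 0.66 ± 0.14 (edgeR adjusted p = 6.46e-05).

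Of the other roles, Tkt, which links the pentose phosphate pathway to glycolysis, was higher in cycling cells by 0.71 ± 0.09 (edgeR adjusted p = 2.38e-10), and the lactate transporter Slc16a1 by 0.85 ± 0.26 (edgeR adjusted p = 0.00661). The glucose transporter Slc2a3 was lower (-0.69 ± 0.18, edgeR adjusted p = 0.00191). Small calls of Mpc1 (0.24), Aldoa (-0.19) and Pdk1 (-0.38) were each lost without at least 2 of the 6 libraries in turn, at 0.21 to 0.23, -0.17 and -0.18, and -0.31 to -0.35. The Aldoa call was also lost with sums thinned (-0.057, edgeR adjusted p = 0.643), as were those of Slc2a3 (-0.72, edgeR adjusted p = 0.104) and Pdk1 (-0.25, edgeR adjusted p = 0.478). Under DESeq2 those of Slc16a1, Mpc1 and Pdk1 were lost (DESeq2 adjusted p = 0.0511, 0.0544 and 0.088). With cells thinned to 1000 UMIs, the calls of Gapdh, Tpi1, Pgk1, Pkm, Ldha, Tkt and Aldoa held. Those of Pgam1 (0.35, edgeR adjusted p = 0.242), Ldhb (-0.66, edgeR adjusted p = 0.15), Slc2a3 (-0.94, edgeR adjusted p = 0.129), Slc16a1 (1.24, edgeR adjusted p = 0.129), Pdk1 (-0.42, edgeR adjusted p = 0.431) and Mpc1 (-0.041, edgeR adjusted p = 0.929) did not. In liver, Gapdh read 1902 and 1853 CPM in cycling cells and 1045 and 1038 in the others, while the non-cycling cells of spleen read 493 and 407 and those of lymph node 530 and 416. Among cells not counted as cycling, Gapdh thus read higher in liver than in the other organs. Deeper cells are more easily counted as cycling, and the part of cycling in the organ difference was not tested. Hk2 was not called between cycling and other cells.

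**Figure D5:**
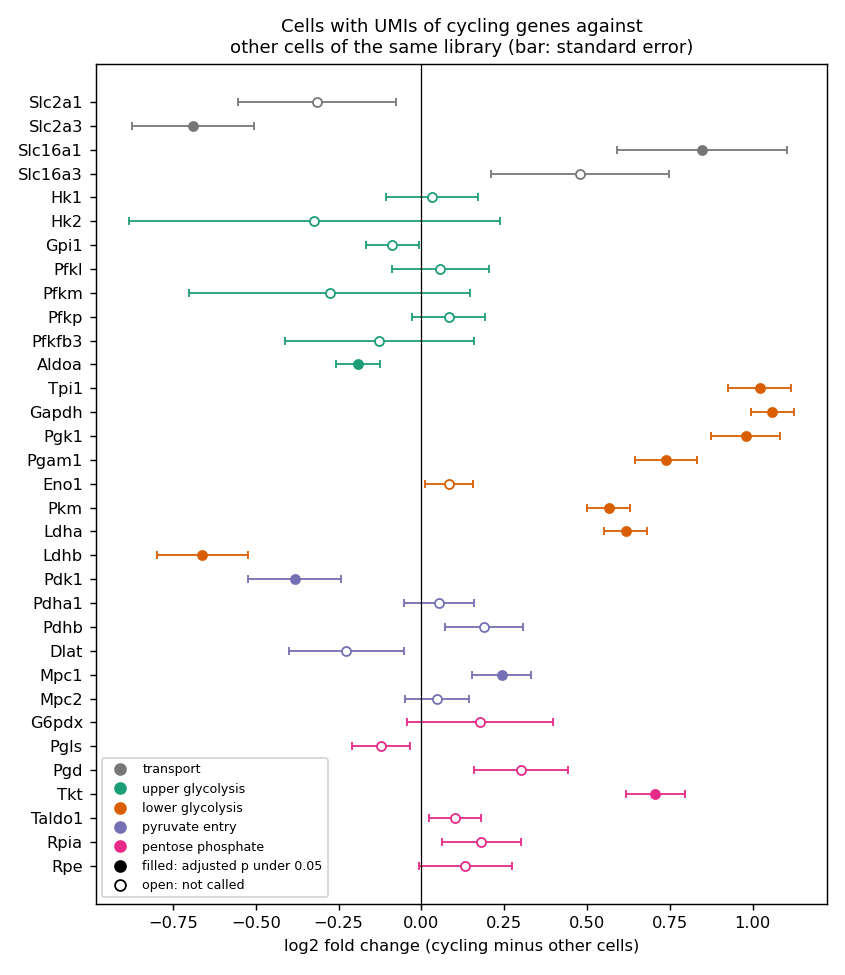
Log2 fold change (x axis) of each member (y axis, coloured by role) between cycling and other cells of the same library, with standard error; filled points passed an adjusted p of 0.05. Gapdh (1.06), Tpi1 (1.02) and Pgk1 (0.98) stand farthest to the right and Slc2a3 (-0.69) and Ldhb (-0.66) farthest to the left.

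Of 61 further genes of these pathways, 36 were tested in all cells. Liver was higher than lymph node for 8 and lower for 7, liver was higher than spleen for 2 and lower for 2, and spleen was lower than lymph node for 4 and higher for 0. The shares of all genes called, given above, were 18.0% and 19.6%, 12.7% and 13.0%, and 10.3% and 7.98% in the same order, so that the first counts were close to those of all genes. Genes with a fold of at least 1.5 included Adpgk, an ADP-dependent glucokinase, at 16.8 and 20.9 CPM in the liver libraries, 19.3 and 15.4 in those of spleen, and 39.8 and 49.0 in those of lymph node (-1.29 ± 0.18 for liver and -1.33 ± 0.20 for spleen against lymph node, edgeR adjusted p = 6.81e-07 and 3.89e-06). Tktl1, a transketolase-like gene, rose from 14.3 and 19.6 in liver over 26.0 and 26.3 in spleen to 45.4 and 49.0 in lymph node, and all 3 pairs of organs were called (edgeR adjusted p of 0.006 or less). H6pd (1.08 ± 0.27) and Tigar (0.92 ± 0.30), a phosphatase that lowers glycolytic flux, were higher in liver than in lymph node, while Pgm2l1 (-0.95 ± 0.17) was lower in spleen than in lymph node.

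Of 33 regulators of glucose metabolism, 32 were tested, and liver was higher than spleen for 7 and lower for 1, liver was higher than lymph node for 8 and lower for 5, and spleen was lower than lymph node for 6 and higher for 0. Of all genes, 12.7% and 13.0%, 18.0% and 19.6%, and 10.3% and 7.98% were called in the same order. Mycn, a Myc family transcription factor, was near 0 outside lymph node, at 0.283 and 0.495 CPM in liver and 0.521 and 0.560 in spleen against 11.1 and 12.4 in lymph node (-4.91 ± 0.48 and -4.36 ± 0.53, edgeR adjusted p = 4.85e-10 and 9.46e-08). The lymph node libraries held 41 and 45 Mycn UMIs, whereas every other library held only 2 or 3. The direction was thus clear, but the size of both Mycn folds rests on few counts and is uncertain. The prolyl hydroxylase Egln3 was also highest in lymph node, at 12.7 and 16.6 against 2.83 to 5.60. Txnip, which lowers glucose uptake, read 301 and 214 in the liver libraries, 80.2 and 68.6 in those of spleen, and 103 and 112 in those of lymph node, and liver exceeded spleen by 1.71 ± 0.14 and lymph node by 1.20 ± 0.13 (edgeR adjusted p = 2.14e-10 and 1.68e-08). The kinase gene Akt1 was lowest in spleen, at 21.3 and 16.8 against 41.7 and 39.9 in liver and 49.2 and 55.9 in lymph node. Irf4 was highest in liver, at 10.3 and 13.2 against 3.60 to 6.25 elsewhere.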

How the data were processed

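Libraries were made by the authors with 10x Genomics 3′ v2 chemistry and processed, per the labels, with Cell Ranger 3.1.0 on mm10. The deposited matrices hold raw UMI counts per gene and barcode, and the deposited gene and barcode lists hold other values (identifiers). The annotation version is not given in the sources used here, so spans are from GENCODE vM21. The labels give nuclear RNA as the molecule, although whole cells were sorted; this was not resolved.

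Cells with 300 to 4000 genes and at most 15% mitochondrial UMIs were kept, 16532 of 16587. No doublet caller was run. UMI counts were summed per library and cell set, leaving out 187 ribosomal, mitochondrial ribosomal and haemoglobin genes. The sums were fitted with edgeR 4.0.16 (TMM, filterByExpr with a minimum count of 10, robust quasi-likelihood test, 6 libraries in 1 fit; library as a block between cell sets), with Benjamini-Hochberg adjustment over all genes tested. Il2rb, Ccr6 and Il23r were not tested in the sets they define. DESeq2 1.42.0 and other settings served as alternatives. Members called in an organ comparison with a fold of 1.5 or more, and the 3 with most UMIs, are given in every library; other pathway genes and regulators are named by the same fold. Standard errors are those of the log2 fold. The members and gene lists were chosen with earlier results of these data known.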

Additional observations from a re-analysis of the deposited data

How the results depend on the processing

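Of the calls in all cells, those of Hk2, Slc2a3, Tpi1, Gapdh, Gpi1, Hk1, Pgls, Tkt and Mpc1 between liver and lymph node, of Mpc2, Tpi1 and Gapdh between liver and spleen, and of Hk2 between spleen and lymph node held without any 1 library. Leaving out 1 library gave 4 to 11 members called for liver against spleen (12 with all libraries), 9 to 15 for liver against lymph node (15) and 2 to 3 for spleen against lymph node (3). In Il2rb cells the ranges were 2 to 5 (4), 4 to 6 (6) and 1 to 2 (2), in Ccr6 or Il23r cells 0 to 1 (1), 1 to 4 (3) and 0 (0), and between the cell sets 0 to 1 in liver (0), 0 to 2 in spleen (1) and 1 to 3 in lymph node (3); between cycling and other cells 11 to 12 (13). DESeq2 called 8, 10 and 2 members in all cells.

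In Il2rb cells, spleen against lymph node gave 1 member under DESeq2, RLE normalization, no filter on low counts, ribosomal genes kept, and sums or cells thinned. It also gave 1 without cycling cells and with sets called after thinning (added after seeing the data), and 0 with 2 UMIs asked for. Liver against lymph node gave 3 with 2 UMIs asked for and 3 with sets called after thinning. Hk2 was not tested with 2 UMIs asked for or with sets called after thinning, so those counts leave it out. In Ccr6 or Il23r cells, liver against spleen gave 2 with ribosomal genes kept and without the cell filter. It gave 0 with cells thinned or cells of both sets left out. Liver against lymph node gave 0 with cells thinned and 1 without cells of both sets. With cells thinned, Gapdh, Gpi1 and Ldha were not tested in these cells, so that 0 is no test of their calls. Between the sets, lymph node gave 1 under DESeq2, 0 with sums thinned (Hk2 and Mpc1 then had too few counts to be tested) and 1 with cells thinned. Spleen gave 0 with sums thinned, where Hk2 was not tested, and 0 with cells thinned. Liver gave 1 with ribosomal genes kept, cells thinned or without cycling cells. Cycling cells gave 7 with cells thinned. Asking for 2 UMIs, or calling sets after thinning, left 1 to 9 Ccr6 or Il23r cells in the liver and spleen libraries and was not run there by choice, although other fits used as few as 4. Folds of the members called kept their sign in all other runs, with 3 exceptions: Mpc1 in cycling cells with cells thinned (-0.041), Gpi1 in Ccr6 or Il23r cells for liver against lymph node without liver replicate 1 (-0.049, against up to 1.34 without other libraries), and Hk2 between the sets in spleen without spleen replicate 1 (-6.02, where the Ccr6 or Il23r cells left held 0 Hk2 UMIs, against up to 4.90 without other libraries). The cause of these changes was not tested.

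Whether libraries of the same replicate number were paired is not stated. Deviations of same-numbered libraries correlated across 9031 genes at 0.14 (liver and spleen), 0.07 (liver and lymph node) and 0.09 (spleen and lymph node). Counting error lowers such values, so they cannot decide whether libraries shared mice or handling. With the replicate block, 15, 17 and 5 members were called in all cells, 7, 6 and 2 in Il2rb cells and 2, 3 and 0 in Ccr6 or Il23r cells, for liver against spleen, liver against lymph node and spleen against lymph node.

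The summed level was 63.3, 50.9 and 52.3 per 10000 in liver, spleen and lymph node with cells thinned, 44.3, 38.2 and 40.4 with ribosomal genes kept, and 55.3, 48.8 and 49.5 without Gapdh, liver highest each time. Without the cell filter the Ldha share in liver was 93.0%. Unthinned, 0.847%, 1.02% and 8.31% of liver, spleen and lymph node cells held an Hk2 UMI. Depth limits the Ccr6 or Il23r cells of liver and spleen, where sums held 83 to 463 member UMIs.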

Other observations

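Of 14 genes linked to hypoxia, 10 were tested in all cells. Lymph node was higher than liver for 4 and lower for 1, and higher than spleen for 3 and lower for 1, while liver was higher than spleen for 1 and lower for 1. Of all genes tested, 19.6% and 18.0%, 10.3% and 7.98%, and 12.7% and 13.0% were called in the same order. The mitophagy receptor gene Bnip3 read 6.93 and 7.75 CPM in the liver libraries, 7.03 and 7.0 in those of spleen, and 13.8 and 18.5 in those of lymph node (log2 fold change of -1.19 ± 0.25 for liver and -1.18 ± 0.28 for spleen against lymph node, edgeR adjusted p = 0.00033 and 0.0023). Ero1l, an oxidase of the endoplasmic reticulum, read 97.8 and 88.4 in the liver libraries, 145 and 128 in those of spleen, and 160 and 195 in those of lymph node, and liver was below both spleen (-0.63 ± 0.12, edgeR adjusted p = 0.000283) and lymph node (-0.98 ± 0.12, edgeR adjusted p = 6.03e-08). Ankrd37 went the other way between liver and spleen, at 9.76 and 12.0 in the liver libraries and 6.25 and 4.20 in those of spleen (0.97 ± 0.30, edgeR adjusted p = 0.0169), and read 7.57 and 9.40 in those of lymph node.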
